A study of Mus musculus with 6 samples.

Results

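The genes examined were 10 that encode proteins secreted into, or carried across to, the lumen of the mouse uterus: *Ltf*, *C3*, *Lcn2*, *Ovgp1*, *Clu*, *Slpi*, *Wfdc2*, *Pigr*, *Defb1* and *Camp*. They were chosen by name for known estrogen-induced or antimicrobial roles, and their identifiers were all found among the 56748 genes of the deposited tables. Whole uteri, 3 labelled control and 3 *Gp130* ecKO, came from mice of C57BL/6 background (C57BL/6J in the study's methods) at 1600 h on day 4 of pregnancy, just before the blastocyst attaches. *Gp130* ecKO females carried *Ltf*-iCre on 1 allele and floxed *Gp130* on both, whereas the control is labelled WT and included, by the study's methods, floxed females without iCre or wildtype females. *Gp130*, listed under its symbol *Il6st*, encodes the shared signalling receptor chain for leukemia inhibitory factor and related cytokines. iCre in these mice is driven from the *Ltf* gene itself, so that recombination follows the uterine epithelium, and one of the genes described here carries the driver allele in every *Gp130* ecKO female and in no control. The effect of that allele on *Ltf* reads was not tested. The study also notes that *Ltf* is active in some neutrophils and macrophages.

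Epithelium of the uterine lumen and glands secretes proteins that guard the mucosa and condition the fluid around the embryo. Several of them are classical responses to estrogen in the rodent uterus: lactotransferrin and complement component 3 accumulate in epithelium under estradiol and are restrained by progesterone. The remainder are barrier proteins: iron-sequestering lipocalin 2, protease inhibitors with whey acidic protein (WAP) domains, the receptor that carries IgA across epithelium, and small cationic peptides. Neutrophils store several of the same proteins in granules. In RNA from a whole uterus, a lower number of cells of a type and less RNA per cell cannot be told apart.

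The proximal promoters are shown for *Ovgp1* and *Ltf*, the genes with the highest estimated increases in *Gp130* ecKO. Each run is 300 bases, from 250 bases before to 50 bases from the GENCODE M39 start onward, read 5′ to 3′ on the gene's strand of GRCm39. *Ovgp1* is at chr3:105880777-105881076 on the plus strand and *Ltf* at chr9:110848089-110848388 on the plus strand. Capitals mark matches to the motifs searched.
Ovgp1: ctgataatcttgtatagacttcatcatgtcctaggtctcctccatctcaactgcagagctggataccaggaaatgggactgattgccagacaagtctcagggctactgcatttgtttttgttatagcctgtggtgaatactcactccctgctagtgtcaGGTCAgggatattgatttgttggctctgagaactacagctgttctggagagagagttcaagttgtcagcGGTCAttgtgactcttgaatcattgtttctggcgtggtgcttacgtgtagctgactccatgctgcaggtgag
Ltf: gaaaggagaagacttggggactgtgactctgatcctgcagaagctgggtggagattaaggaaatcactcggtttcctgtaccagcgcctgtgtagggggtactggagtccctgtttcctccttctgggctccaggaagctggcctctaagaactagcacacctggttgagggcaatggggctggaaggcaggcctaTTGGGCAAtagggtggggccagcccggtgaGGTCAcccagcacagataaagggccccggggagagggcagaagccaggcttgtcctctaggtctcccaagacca
The motifs were searched on both strands in all 21770 protein-coding promoters of the same length. They were the full estrogen response element GGTCANNNTGACC, its single arm GGTCA, the STAT letters TTCNNNGAA and the C/EBP letters TTGCNNAA, and the arm is contained in the full element. The full element was in none of the 10 windows, against 0.0505% of all promoters, and in none of the 5 kb upstream of these 10 genes, against 0.694%. Only exact matches were searched, so imperfect elements were not counted. With so rare a match, its absence does not set these genes apart. The arm was in 6 of them, with 2 matches in each of *C3* and *Ovgp1*, and was also in 39.3% of all promoters. The STAT letters were in none, against 8.81% of all promoters, and within 5 kb upstream they were in 5 of the 10 genes (*C3*, *Clu*, *Slpi*, *Pigr* and *Defb1*), against 80.9% of all genes.

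The C/EBP letters were in 6 of the 10 windows, against 10.7% of all promoters, and within 5 kb upstream they were in all 10 genes, against 86.7% of all genes. These are shown because *Cebpb* and *Cebpd*, which encode factors named for this motif, were among the genes compared below. The match is in capitals with 10 bases of GRCm39 on each side, on the strand of the gene.
Ltf: ggcaggcctaTTGGGCAAtagggtgggg
C3: ggaaactatgTTGCGAAAttttgggcag
Lcn2: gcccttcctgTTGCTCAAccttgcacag
Slpi: ggaatttgtaTTGAGCAAtaggttagag
Defb1: atttatgaggTTATGCAAccagtgttcc
Camp: ttttaccccgTTGAGCAAtactggatat
The first base of the match was at −54 from the start of *Ltf*, −26 of *C3*, −158 of *Lcn2*, −241 of *Slpi*, −29 of *Defb1* and −105 of *Camp*. *Ovgp1*, *Clu*, *Wfdc2* and *Pigr* had no match in this window. A match describes the letters only, and each window depends on the start chosen. The windows of *Lcn2*, *Clu*, *Slpi* and *Wfdc2* begin from a start inside the annotated gene. Against the RefSeq promoters, the windows of *Wfdc2* and *Camp* shared stretches of at least 40 and 130 bases, those of the other 6 genes with an entry at least 200, and *Clu* and *Defb1* were not matched.

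Total expected counts ranged from 13960748 in control 3 to 25906443 in control 2, and 3 counts correspond to 0.115 to 0.2 CPM. Values below are CPM, counts relative to the scaled library size, unless TPM, the deposited unit scaled for length, is named. *Il6st* was 631, 678 and 452 CPM in controls 1 to 3, against 388, 349.8 and 361.8 across *Gp130* ecKO 1 to 3, so that the 3 *Gp130* ecKO values were the lowest, in tissue that also held stroma and muscle. Its log2 fold change was −0.68 with a standard error of 0.21 (adjusted p = 0.12, edgeR quasi-likelihood test). Across genes within the libraries, log2 CPM of control 2 correlated more with *Gp130* ecKO 2 (r = 0.967) than with control 1 (r = 0.958) or control 3 (r = 0.946). Without control 2 the number of genes called over the whole transcriptome went from 26 to 892.

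Of the 10 secretory genes, 9 passed the filter on low counts, and *Camp* did not. Calls required an FDR under 0.05 (Benjamini-Hochberg) together with a difference of over 2-fold. *Ovgp1* alone was called, and it was higher in *Gp130* ecKO. Over all 16605 tested genes, 26 were called (0.157%). At an unadjusted p under 0.05 there were 3 of the secretory genes, *Ovgp1* higher and *Clu* and *Slpi* lower, beside 25.0% of tested genes. The same 3 had groups that did not overlap in CPM, beside 31.3% of tested genes. Both shares among the secretory genes are near the background. The median log2 fold change of the 9 was −0.36, with 4 estimates above 0 and 5 below, and over all tested genes it was −0.05. With DESeq2, and with the exact test of edgeR, *Ovgp1* was again called and no other of these genes, although DESeq2 called 9.65% and the exact test 7.54% of all genes. P-values throughout measure the spread between these 6 uteri, and the labels do not say whether the uteri of a group came from separate animals.

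**Figure D1:**
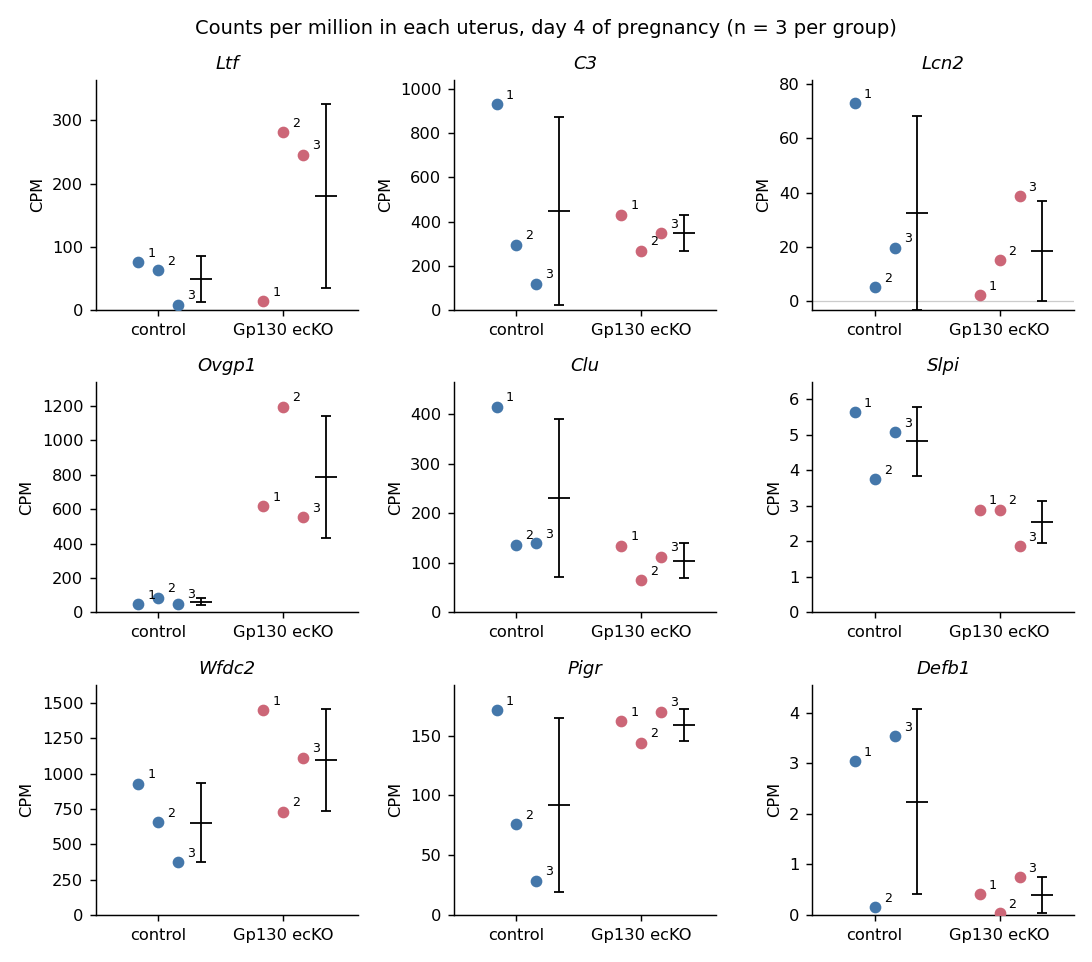
CPM (vertical axes, linear) of the 9 tested secretory genes in each uterus. Points are single uteri with their replicate number (blue, control; red, *Gp130* ecKO) and the bar beside each group is the mean with its SD (n = 3). *Ovgp1* separates widely between 85.3 in the highest control and 552 in the lowest *Gp130* ecKO uterus, and *C3*, *Lcn2*, *Clu* and *Pigr* have one control far above the others.

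Per unit of length these genes covered most of the range of the transcriptome. *Wfdc2* was the most abundant, at 1017 to 3577 TPM over the 6 uteri, and its mean of 2103 TPM was above that of 99.6% of tested genes. It exceeded every other gene of the group in 6 of 6 uteri. *Ovgp1*, *Clu*, *C3* and *Ltf* followed with means of 238, 151, 140 and 139 TPM, and their order was not stable: *Ovgp1* exceeded *Clu* in 3 of 6 uteri, *Clu* exceeded *C3* in 3 and *C3* exceeded *Ltf* in 4. *Pigr* and *Lcn2*, at 44.3 and 39.97 TPM, were not ordered either, as *Pigr* exceeded *Lcn2* in 3 of 6 uteri. *Ltf* exceeded *Pigr* in 5 of 6 uteri. *Slpi* had a mean of 7.04 TPM, and *Lcn2* exceeded it in 5 of 6 uteri, the exception being *Gp130* ecKO 1 with *Slpi* at 5.89 and *Lcn2* at 3.63 TPM. *Defb1* had a mean of 2.17 TPM, and *Slpi* exceeded *Defb1*, and *Defb1* exceeded *Camp*, in 6 of 6 uteri. *Camp* was at 0.0133 TPM.

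The spread between uteri also set the genes apart. *Slpi* had the narrowest range, with a highest uterus 2.41 times the lowest in TPM, and *Wfdc2* came next at 3.52 times. *Ovgp1*, *Lcn2* and *Ltf* ranged over 30.1, 30.3 and 31.2 times. In *Ovgp1* that range lay between the groups, whereas in *Ltf* and *Lcn2* most of it lay within each group. *Defb1* ranged over 87.7 times at counts of 1 to 75.

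**Figure D2:**
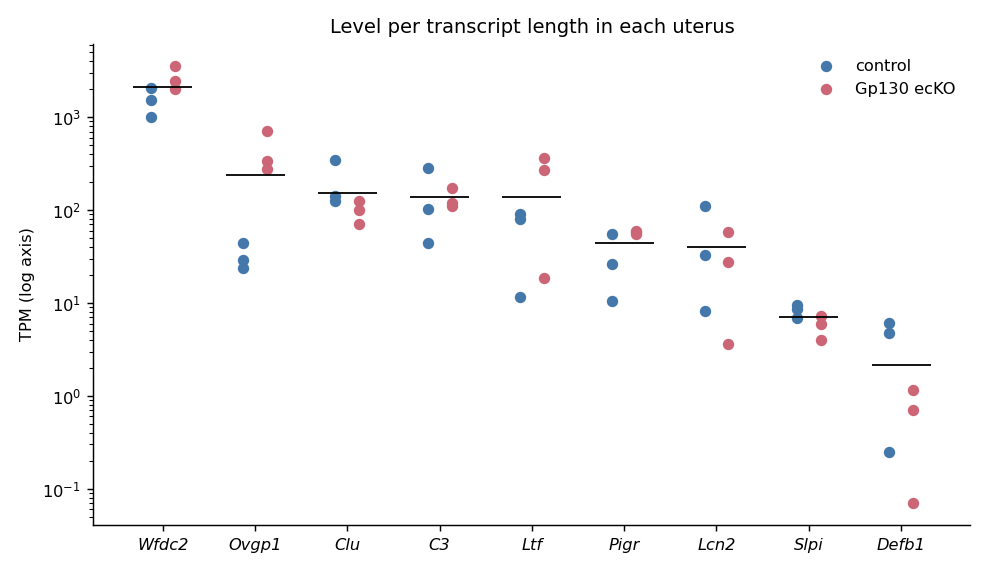
TPM on a log axis of the 9 secretory genes with a value above 0 in every uterus, ordered by the mean over the 6 uteri (black line). Points are single uteri (blue, control; red, *Gp130* ecKO). *Wfdc2* lies above 1000 TPM in every uterus, and the red and blue points of *Ovgp1* lie apart.

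*Ovgp1* encodes oviductin, a secreted glycoprotein of the chitinase-like family best known from the oviduct, where estrogen raises it and where it coats the egg and early embryo. It lies at chr3:105881027-105894739 of GRCm39 on the plus strand, in 11 exons encoding 721 residues. In the control uteri *Ovgp1* was at 47.9, 85.3 and 50.6 CPM. In *Gp130* ecKO it was at 615, 1193 and 552 CPM. The lowest *Gp130* ecKO uterus was therefore far above the highest control. The group means were 61.3 ± 20.9 and 787 ± 353 CPM (SD, n = 3), a ratio of 12.8.

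The log2 fold change of *Ovgp1* was 3.68 with a standard error of 0.40 (adjusted p = 0.0377, edgeR quasi-likelihood test), and it ranked 12 by p among tested genes. The adjusted p is close to the threshold. It was above 0.05 without control 1, control 3 or any single *Gp130* ecKO uterus, between 0.0583 and 0.137 (edgeR quasi-likelihood test). The log2 fold change stayed between 3.26 and 3.91 in those fits. The legacy form of the quasi-likelihood test gave an adjusted p of 0.0592, with which *Ovgp1* was not called, the exact test 1.29e-12 and DESeq2 2.13e-17. With 3 uteri a group, the exact two-sided permutation test has 0.1 as its smallest possible p. Any gene whose groups do not overlap reaches that value, as *Ovgp1*, *Clu* and *Slpi* did, so it adds nothing to the separation.

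Part of the *Ovgp1* sequence is shared with a second gene. Of the 2542 stretches of 75 bases in its transcript, 35.1% also occur in *Gm42890*, a long noncoding RNA annotated on the same strand, and RSEM divides such reads by its model. *Gm42890* was at 0.324, 0.771 and 0.333 CPM in controls 1 to 3, against 2.71, 11.2 and 3.69 CPM across *Gp130* ecKO 1 to 3. It was low beside *Ovgp1* in every uterus. With the counts of both genes summed, an alternative added after the data were seen, the log2 fold change was 3.68 and the adjusted p 0.0377 (edgeR quasi-likelihood test).

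The 10 tested protein-coding genes nearest to *Ovgp1*, 5 on each side, were not called. *Wdr77*, the next gene upstream and a partner of an arginine methyltransferase, had a log2 fold change of 0.56. *Dennd2d* had 0.90, and these were the 2 neighbours whose groups did not overlap, beside 31.3% of all tested genes. Among other chitinase-like genes, *Chil5* and *Chia1*, which lie next to *Ovgp1* on the downstream side, were at no more than 6.60 and 1.07 CPM in any uterus. Their log2 fold changes were −1.08 and −1.13 (adjusted p = 0.553 and 0.32, edgeR quasi-likelihood test). *Chid1*, on chromosome 7, had means of 38.0 CPM in controls and 61.8 CPM in *Gp130* ecKO and was not called (log2 fold change 0.70). Per unit of length it was close to *Ovgp1* in controls, with means of 28.03 and 32.32 TPM.

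Since *Ovgp1* is an oviduct gene, markers of oviduct and ciliated epithelium were examined in the same uteri. *Sntn*, a protein of the ciliary tip, had 1 count in *Gp130* ecKO 1 and 0 in the remaining 5 uteri. *Dynlrb2*, a dynein light chain of cilia, had at most 3 counts. *Foxj1*, the regulator of motile cilia, was at 0.2 to 0.54 CPM in controls 1 to 3, against 1.72, 0.423 and 3.32 CPM across *Gp130* ecKO 1 to 3. *Pax2*, a regulator in the epithelium of the reproductive tract, was at 25.9, 53.5 and 21.4 CPM in controls 1 to 3, against 86.8, 89.5 and 43.9 CPM across *Gp130* ecKO 1 to 3. Within its group, *Gp130* ecKO 2 had the highest *Ovgp1* and *Pax2* and the lowest *Foxj1*. *Tppp3* was at 55.8, 58.7 and 105 CPM in controls 1 to 3, against 64.9, 48.8 and 52.6 CPM across *Gp130* ecKO 1 to 3 (log2 fold change −0.40). Of the 9 tested genes of that list, *Ovgp1* was the single one called, 3 including it had an unadjusted p under 0.05 and were higher, and 1 (*Dnah5*) was lower. The median of the list was −0.20. The part of oviduct tissue in the *Ovgp1* values was not tested.

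**Figure D3:**
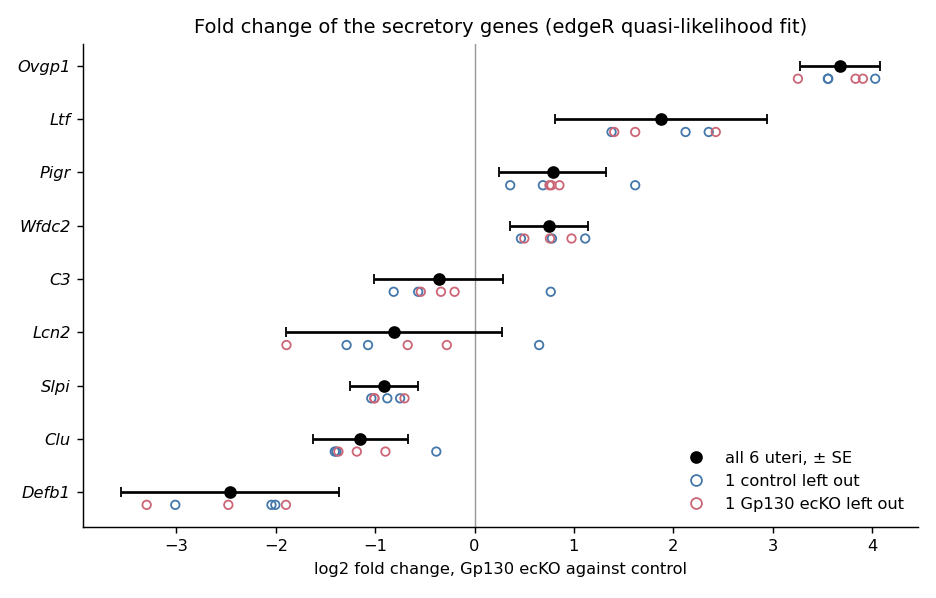
Log2 fold change of *Gp130* ecKO against the control (horizontal axis) for the 9 tested secretory genes. Black points are the fit of all 6 uteri with the standard error, and open circles are fits without 1 control (blue) or 1 *Gp130* ecKO uterus (red). The circles of *Ovgp1* lie between 3.26 and 4.03, and those of *C3* and *Lcn2* are on both sides of 0.

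*Ltf* and *Lcn2* encode proteins that keep iron from bacteria. Lactotransferrin binds iron directly, and lipocalin 2 binds the siderophores that carry it. *Ltf* (chr9:110848339-110871835, plus strand) was at 75.7, 62.7 and 8.27 CPM in controls 1 to 3, against 13.8, 281 and 245 CPM across *Gp130* ecKO 1 to 3. *Gp130* ecKO 2 and 3 were above every control, while *Gp130* ecKO 1 was below 2 of the 3 controls. The groups overlapped, and the log2 fold change of 1.88 with a standard error of 1.07 was not called (adjusted p = 0.308, edgeR quasi-likelihood test). It ranged from 1.38 without control 3 to 2.43 without *Gp130* ecKO 1. The direction of the *Ltf* estimate was the same under all 18 alternatives, with an adjusted p of 0.239 to 0.539. The study listed *Ltf* among its upregulated genes, at over 2-fold and an FDR under 0.05, from these same uteri. Here *Ltf* was called neither in the main fit nor under any of the 18 alternatives. Its direction here is not independent evidence.

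*Lcn2* (chr2:32274645-32278264, minus strand) was at 72.9, 5.09 and 19.6 CPM in controls 1 to 3, against 2.13, 15.0 and 38.6 CPM across *Gp130* ecKO 1 to 3. No order between the groups was visible. Its log2 fold change was −0.81 with a standard error of 1.09 (adjusted p = 0.664, edgeR quasi-likelihood test), and it was 0.65 without control 1. The 2 iron-related genes did not share a pattern, since *Ltf* was highest in *Gp130* ecKO 2 and *Lcn2* in control 1. In both of them *Gp130* ecKO 1 was the lowest of its group.

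The other lipocalins fixed in the list were low. Of 16 in the tables, 6 were tested, none was called, and *Rbp4*, *Orm1* and *Obp2a* were lower at an unadjusted p under 0.05. *Rbp4*, the plasma carrier of retinol, was the most abundant of the 6 at a mean of 3.99 TPM. The median of the 6 was −0.87. *Lrp2* (megalin), an endocytic receptor that takes up lipocalins and clusterin, was at 285, 1244 and 311 CPM in controls 1 to 3, against 651, 1400 and 733 CPM across *Gp130* ecKO 1 to 3, and its groups overlapped. Among the 15 tested receptors and partners of these proteins, none was called and 3 were lower at an unadjusted p under 0.05 (*Lrp1*, *Lrp8* and *Trem2*).

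*C3* and *Clu* act on complement. *C3* is the component on which the activation pathways converge, and clusterin is a secreted chaperone that restrains the terminal complex. *C3* (chr17:57510964-57535155, minus strand) was at 930, 296 and 120 CPM in controls 1 to 3, against 431, 268 and 347 CPM across *Gp130* ecKO 1 to 3. The controls spanned the whole range, and all *Gp130* ecKO values lay inside it. Its log2 fold change was −0.36 with a standard error of 0.65 (adjusted p = 0.746, edgeR quasi-likelihood test). The sign rested on control 1, because the estimate was 0.77 without it.

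*Clu* (chr14:66190200-66218999, plus strand) was at 415, 137 and 140 CPM in controls 1 to 3, against 134, 65.5 and 113 CPM across *Gp130* ecKO 1 to 3. The groups did not overlap, though the nearest pair, control 2 at 136.9 and *Gp130* ecKO 1 at 134.4 CPM, was almost level. The log2 fold change was −1.15 with a standard error of 0.48 (adjusted p = 0.195, edgeR quasi-likelihood test). Without control 1 it was −0.39, so that the size of the difference rested on that uterus.

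The rest of the complement list held 34 genes, of which 25 were tested and none was called. At an unadjusted p under 0.05, 0 were higher and 7 were lower, and the median was −0.64. Over all tested genes, 2009 were higher and 2140 lower at that p. *Serping1*, the inhibitor of the first complement proteases and the most abundant of the list, was at 401, 221 and 194 CPM in controls 1 to 3, against 77.3, 66.0 and 76.8 CPM across *Gp130* ecKO 1 to 3. Its log2 fold change was −1.89 (adjusted p = 0.0548, edgeR quasi-likelihood test). *Cfb*, which forms the alternative convertase with *C3*, was at 96.6, 47.7 and 19.5 CPM in controls 1 to 3, against 29.4, 148 and 144 CPM across *Gp130* ecKO 1 to 3, a log2 fold change of 0.97 with overlapping groups. *Cd55*, a membrane inhibitor of the convertases, had −0.34, and *C1qa*, a macrophage-made subunit of C1q, had −0.76.

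*Wfdc2* and *Slpi* encode small secreted proteins with WAP domains, and secretory leukocyte protease inhibitor blocks neutrophil elastase. They lie in the same cluster on chromosome 2. *Wfdc2* (chr2:164403475-164411377, plus strand) was at 929, 656 and 372 CPM in controls 1 to 3, against 1447, 730 and 1112 CPM across *Gp130* ecKO 1 to 3. *Gp130* ecKO 1 and 3 were above every control, and *Gp130* ecKO 2 was below control 1. The log2 fold change was 0.75 with a standard error of 0.39 (adjusted p = 0.273, edgeR quasi-likelihood test). The estimate moved to 0.47 when control 3 was left out, to 0.50 when *Gp130* ecKO 1 was, and to 1.11 when control 1 was.

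*Slpi* (chr2:164195990-164231015, minus strand) was at 5.62, 3.74 and 5.07 CPM in controls 1 to 3, against 2.89, 2.88 and 1.87 CPM across *Gp130* ecKO 1 to 3. The groups did not overlap. Their means were 4.81 ± 0.967 and 2.55 ± 0.591 CPM (SD, n = 3) at 45 to 139 counts per uterus. The log2 fold change was −0.91 with a standard error of 0.34 (adjusted p = 0.162, edgeR quasi-likelihood test). It stayed between −1.04 and −0.71 with any single uterus left out. In TPM the groups overlapped, with control 2 at 6.84 and *Gp130* ecKO 2 at 7.31, and limma-trend on TPM gave −0.53. The adjusted p was 0.0976 with DESeq2, the lowest of its alternatives.

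Of 20 further genes listed as WAP-domain or related (*Spint4*) in the tables, 9 were tested and none was called. *Wfdc10* was the single gene with an unadjusted p under 0.05, at 4.29, 4.01 and 2.00 CPM in controls 1 to 3, against 13.2, 10.04 and 9.95 CPM across *Gp130* ecKO 1 to 3 (log2 fold change 1.67). *Wfdc1*, *Wfdc3* and *Wfdc15b*, the most abundant of the list, had −0.68, 0.31 and 1.496. The median of the 9 was 0.88. A further 7 of the 20 had at most 3 counts in each uterus.

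*Pigr* encodes the polymeric immunoglobulin receptor, which takes up IgA with its joining chain at the base of epithelial cells and releases it at the lumen. *Pigr* (chr1:130754397-130779986, plus strand) was at 171, 76.0 and 28.7 CPM in controls 1 to 3, against 162, 144 and 170 CPM across *Gp130* ecKO 1 to 3. The *Gp130* ecKO uteri were close together, with an SD of 13.3 CPM, and control 1 was level with them. The controls had an SD of 72.6 CPM. The log2 fold change was 0.79 with a standard error of 0.54 (adjusted p = 0.392, edgeR quasi-likelihood test), and it was 1.62 without control 1 and 0.36 without control 3.

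The cargo of this receptor followed another pattern. *Igha*, the IgA heavy chain, was at 44.9, 138 and 318 CPM in controls 1 to 3, against 15.3, 289 and 56.2 CPM across *Gp130* ecKO 1 to 3. *Jchain* was at 26.0, 44.5 and 154 CPM in controls 1 to 3, against 9.63, 95.9 and 41.8 CPM across *Gp130* ecKO 1 to 3. Control 3, with the lowest *Pigr*, had the highest *Igha* and *Jchain*. None of the 12 tested genes of IgA and plasma cells was called or had an unadjusted p under 0.05 with the edgeR quasi-likelihood test, and their median was −0.46.

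*Defb1* and *Camp* encode cationic antimicrobial peptides, a beta-defensin of epithelia and a cathelicidin that in mice is stored mainly in neutrophils. *Defb1* (chr8:22266584-22285201, plus strand) was at 3.03, 0.154 and 3.53 CPM in controls 1 to 3, against 0.407, 0.0385 and 0.746 CPM across *Gp130* ecKO 1 to 3. These correspond to 75, 4 and 53 counts and to 9, 1 and 18 counts. Controls 1 and 3 were above every *Gp130* ecKO uterus, and control 2 was below 2 of the 3. The log2 fold change was −2.46 with a standard error of 1.09 (adjusted p = 0.213, edgeR quasi-likelihood test). Leaving out single uteri moved it between −1.90 (*Gp130* ecKO 2 removed) and −3.30 (*Gp130* ecKO 3 removed). With control 2 removed it was −3.01 (adjusted p = 0.0597, edgeR quasi-likelihood test), and limma-trend on TPM gave −1.50. *Camp* (chr9:109676442-109678685, minus strand) had 1 count in *Gp130* ecKO 3 and 0 in each of the remaining 5 uteri. A count of 0 allows up to 3 counts, so *Camp* was at most at about 0.2 CPM in those uteri, by counting error only, and no difference was detectable at this depth.

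The remaining 22 beta-defensins of the list were at most at 3 counts in each uterus, and 16 of them were at 0 in all 6. Of 26 further antimicrobial genes 12 were tested and none was called. *Lyz2*, the most abundant, is a lysozyme of macrophages and was at 230, 206 and 261 CPM in controls 1 to 3, against 466, 305 and 142 CPM across *Gp130* ecKO 1 to 3. *Rnase4*, a secreted ribonuclease, was at 94.3, 107 and 135 CPM in controls 1 to 3, against 62.9, 71.2 and 66.7 CPM across *Gp130* ecKO 1 to 3 (log2 fold change −0.74, adjusted p = 0.0897, edgeR quasi-likelihood test). *Sftpd*, a lectin of mucosal fluids, and *Lyz1* had overlapping groups and log2 fold changes of −1.35 and 1.14. At an unadjusted p under 0.05, *Rnase4*, *Ang*, *S100a8* and *S100a9* were lower and *Ang4* was higher. The median of the 12 was −0.59.

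**Figure D4:**
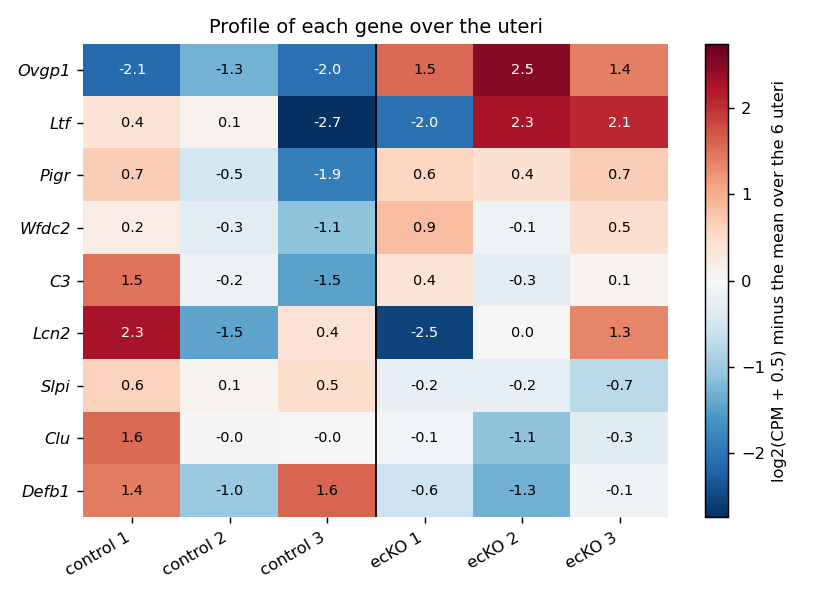
Log2(CPM + 0.5) of each tested secretory gene minus its mean over the 6 uteri, with red above and blue below that mean and the value in each cell. Columns are the uteri and the line separates the groups. *Ovgp1* and *Slpi* have opposite colours in the groups, and *Ltf* and *Lcn2* are low in *Gp130* ecKO 1. The *Clu* row is highest in control 1 and lowest in *Gp130* ecKO 2, with controls 2 and 3 near the mean.

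Since *Ltf*, *Lcn2* and *Camp* are also products of neutrophils, the remaining 15 markers of these cells were summed. They came to 10.7, 12.2 and 7.87 CPM in controls 1 to 3, against 2.67, 5.58 and 5.97 CPM across *Gp130* ecKO 1 to 3, with 4 of the 15 at 0 in each control and 7, 5 and 4 at 0 in the *Gp130* ecKO uteri. *Ngp* and *Elane*, which define neutrophil granules, were at 0 in all 6 uteri. The sum was lower in each *Gp130* ecKO uterus than in every control. *Ly6g*, a surface marker of neutrophils, went the other way, at 1.58, 0.578 and 0.267 CPM in controls 1 to 3, against 0.543, 2.19 and 2.61 CPM across *Gp130* ecKO 1 to 3, and was highest in the 2 uteri with the highest *Ltf* (log2 fold change 1.08, not called). The part of neutrophils in the *Ltf* values was not tested. In the full list of 18, with *Ltf*, *Lcn2* and *Camp* included, 10 genes were tested, none was called and 4 were lower at an unadjusted p under 0.05 (*S100a8*, *S100a9*, *Retnlg* and *Prtn3*). Of 13 tested macrophage markers 12 had estimates below 0 and 1, *Mrc1*, an unadjusted p under 0.05.

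Epithelial markers were mostly at higher estimates in *Gp130* ecKO, and none was called. The 12 general epithelial markers summed to 4926, 4834 and 2858 CPM in controls 1 to 3, against 8808, 6543 and 6712 CPM across *Gp130* ecKO 1 to 3, and 11 of the 12 had estimates above 0. The median was 0.70, and 5 were higher at an unadjusted p under 0.05, while 6 of the 12 had groups that overlapped. *Epcam* was the exception, at −0.19. The 12 stromal and muscle markers all had estimates below 0, with a median of −0.56. Groups did not overlap in 4 of them, a share near the 31.3% of all tested genes. They summed to 4534, 4280 and 2491 CPM in controls 1 to 3, against 1497, 2080 and 4200 CPM across *Gp130* ecKO 1 to 3, so that *Gp130* ecKO 3 lay above control 3. *Acta2*, the actin of smooth muscle, was at 170 CPM in control 3 and 1098 CPM in *Gp130* ecKO 3. The secretory genes were therefore also expressed relative to epithelial markers, an alternative chosen after the data were seen. Estimates within the 12 ran from −0.19 for *Epcam* to 2.19 for *Krt19*, with *Krt8* at 1.32 and *Cdh1* at 0.66. By staining, the study reports more KRT8 and CDH1 protein in *Gp130* ecKO epithelium. Whether the sum reflects epithelial content or expression per cell was not tested, so values relative to it cannot be read as corrected for content.

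Relative to the 12 summed markers, *Ovgp1* was 7.01-fold higher in *Gp130* ecKO (log2 difference 2.81), and the groups did not overlap. *Clu* and *Slpi* were at −1.84 and −1.76 on the same scale, again without overlap. *Wfdc2* was at −0.05 and *Pigr* at 0.30, with overlapping groups. Relative to *Epcam* alone, *Ovgp1* was 13.8-fold higher, *Clu* and *Slpi* were at −0.87 and −0.79, and *Wfdc2* and *Pigr* were at 0.93 and 1.27 with no overlap between the groups. *C3* was at −0.74 on the 12 markers and 0.23 on *Epcam*, *Ltf* at 0.70 and 1.67, *Lcn2* at −1.69 and −0.72, and *Defb1* at −3.22 and −2.25, with overlapping groups on both scales. The sign of *C3* and *Wfdc2* thus turned with the epithelial marker used, and that of the other 7 did not.

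Gland markers were uneven between uteri. The 10 glandular markers summed to 1169, 299 and 182 CPM in controls 1 to 3, against 8815, 248 and 358 CPM across *Gp130* ecKO 1 to 3, and most of the sum in control 1 and *Gp130* ecKO 1 came from *Prss29* and *Prss28*, implantation serine proteinases of the glands. The other gland markers did not all order the uteri alike. *Foxa2*, a transcription factor of the glands, was at 16.3, 39.3 and 10.8 CPM in controls 1 to 3, against 25.0, 11.5 and 43.4 CPM across *Gp130* ecKO 1 to 3. *Cxcl15*, a chemokine of the glands, was at 18.2, 67.9 and 26.1 CPM in controls 1 to 3, against 17.3, 22.3 and 93.8 CPM across *Gp130* ecKO 1 to 3. Both were highest in control 2 and *Gp130* ecKO 3 of their groups, as were *Aldh1a1* and *Wfdc3*. The sum was highest in control 1 and *Gp130* ecKO 1, as were *Spink1*, *Sox9* and *Ttr*. *Lif* was highest in control 3 and *Gp130* ecKO 2. The part of gland content in the values of the secretory genes was not tested. The 10 luminal markers had a median of 0.87, 3 of them higher at an unadjusted p under 0.05 (*Calb1*, *Msx1* and *Krt13*).

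The list of 22 further estrogen-response genes gave 20 that were tested, none called. At an unadjusted p under 0.05, 5 were higher (*Padi1*, *Padi2*, *Irs1*, *Greb1* and *Clca1*) and 4 were lower (*Gadd45g*, *Ccnd1*, *Fos* and *Cdkn1a*), and the median was 0.52. *Sprr2f*, a cornified envelope protein of luminal epithelium and the most abundant of the list, was at 363, 258 and 93.8 CPM in controls 1 to 3, against 68.5, 131 and 316 CPM across *Gp130* ecKO 1 to 3, with overlapping groups. *Car2*, a carbonic anhydrase, had 0.50 and *Igf1*, a stromal growth factor, −0.72. *Greb1*, a coactivator of the estrogen receptor, was at 3.72, 3.70 and 5.27 CPM in controls 1 to 3, against 34.2, 15.8 and 34.3 CPM across *Gp130* ecKO 1 to 3 (log2 fold change 2.74, adjusted p = 0.0548, edgeR quasi-likelihood test).

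**Figure D5:**
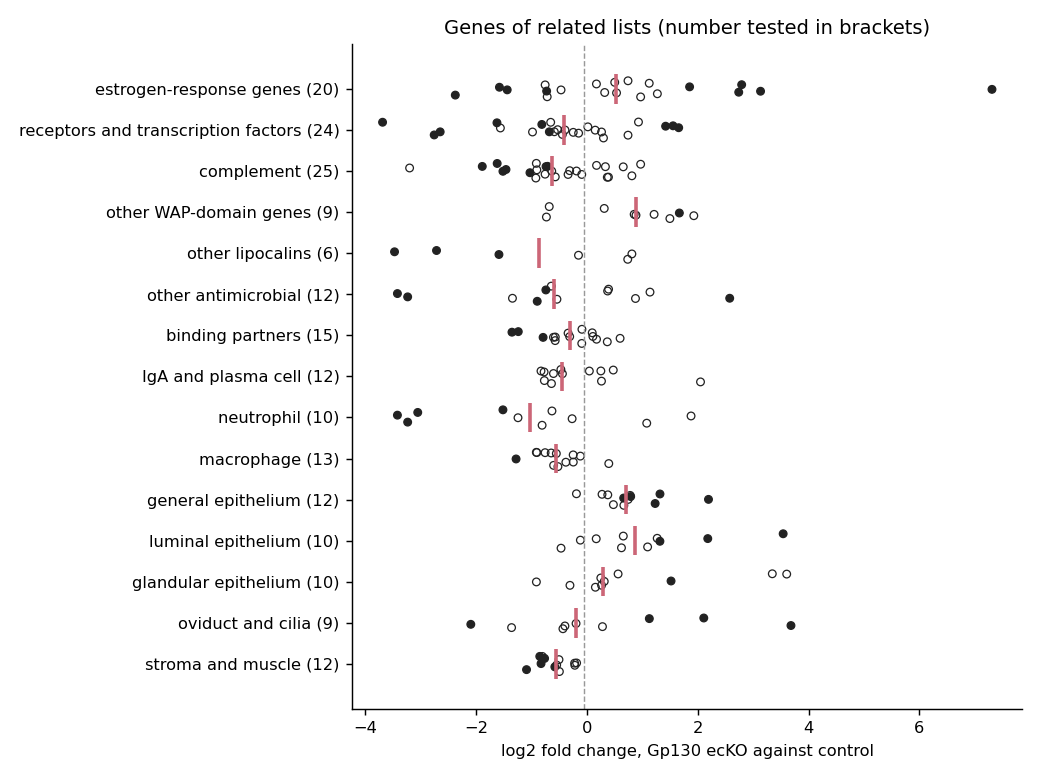
Log2 fold change of the tested genes of each list (points; filled where the unadjusted p is under 0.05), with the list's median (red bar) and the median of all tested genes (dashed line, −0.05). The medians of general and luminal epithelial markers lie to the right of the dashed line, at 0.70 and 0.87, and those of neutrophil and complement genes to the left, at −1.03 and −0.64, with single genes of each list on the other side.

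Receptors and transcription factors linked to these genes were also compared. Of 24 tested, *Bcl3* was called, at 54.0, 39.9 and 54.7 CPM in controls 1 to 3, against 2.03, 5.19 and 4.23 CPM across *Gp130* ecKO 1 to 3. *Bcl3*, a nuclear partner of NF-kappa-B, fell with a log2 fold change of −3.69 (adjusted p = 0.0334, edgeR quasi-likelihood test). *Esr1*, the estrogen receptor, was at 277, 332 and 205 CPM in controls 1 to 3, against 773, 693 and 709 CPM across *Gp130* ecKO 1 to 3 (log2 fold change 1.42, adjusted p = 0.0548). *Cebpd* was at 357, 98.0 and 171 CPM in controls 1 to 3, against 38.5, 24.03 and 29.9 CPM across *Gp130* ecKO 1 to 3 (log2 fold change −2.76, adjusted p = 0.0616). *Cebpb* had −1.63 with an adjusted p of 0.112 (edgeR quasi-likelihood test), and all 4 genes had groups that did not overlap. Over the 24 genes, groups did not overlap in 2 that were higher and 9 that were lower, beside 31.3% of all tested genes. In the list 3 were higher and 6 lower at an unadjusted p under 0.05, with a median of −0.42.

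The secretory genes did not form one pattern. Likeness was measured as the root mean square distance between log2(CPM + 0.5) profiles over the 6 uteri, each centred on its own mean. The distance is not scaled for how much a gene varied. The root mean square of the centred profile itself ran from 0.466 for *Slpi* to 1.88 for *Ltf*. The closest pairs among the 9 were *Wfdc2* and *Pigr* (0.461), *C3* and *Pigr* (0.559), and *Clu* and *Slpi* (0.59). The *Slpi* profile was nearer to a flat line than to *Clu*. *Lcn2* and *Ovgp1* were the farthest apart (2.83). Among the 10260 tested genes with a mean of at least 10 CPM, the 3 nearest to *Ovgp1* were *Chst10* (0.392), *H2-Q2* (0.456) and *Osbpl6* (0.463). *Chst10* encodes a carbohydrate sulfotransferase and was at 6.15, 9.14 and 7.13 CPM in controls 1 to 3, against 39.97, 142 and 51.0 CPM across *Gp130* ecKO 1 to 3, highest in the same uterus as *Ovgp1*.

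The nearest genes to *Ltf* were *Cfb* (0.84), *Slc6a14* (0.884) and *Arvcf* (1.1), and *Cfb* is on the estrogen and complement lists. *Wfdc2* ran close to *Krt18* (0.108), *Rab3d* (0.135) and *Jup* (0.14). *Krt18* is a keratin of simple epithelium and was at 581, 459 and 286 CPM in controls 1 to 3, against 940.4, 546 and 733 CPM across *Gp130* ecKO 1 to 3. *Clu* was nearest to *Efna1* (0.148), *Crim1* and *Gm13237*, and *Slpi* to *Cemip2* (0.0911), *Abcg1* and *Lyar*. *C3* was nearest to *Lyve1* (0.206), *Slc5a11* and *Nr1d1*, and *Pigr* to *Mid1* (0.275), *Tmprss4* and *Gm47162*. *Lcn2* was nearest to *Pbk* (0.855), *Cdca3* and *Tnfaip2*, of which *Pbk* and *Cdca3* act in mitosis. *Defb1* was nearest to *Clca3a1* (0.307), *Atp6v0a4* and *Clcf1*. The nearest genes to *Ltf* and *Lcn2* were thus more distant than those to the other 7, at 0.0911 to 0.392. With 6 uteri and many candidates, these distances describe the samples and carry no test.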

How the data were processed

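Poly(A) RNA of 6 whole uteri had been made into strand-specific libraries and read on one end over 75 bp. The authors trimmed the reads with fastp 0.23.2, removed ribosomal reads, mapped them to GRCm39 with STAR 2.7.10a and estimated an expected count per gene with RSEM 1.3.3, per the labels and the methods. The annotation version and strand setting are not given in the sources used here. The deposited tables hold expected counts, TPM and FPKM, the last 2 normalized by the authors for gene length and sequencing depth. FPKM was not used, and TPM served to compare levels between genes.

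Symbols, positions and starts came from GENCODE M39 on GRCm39, which held 56017 of 56748 identifiers. Expected counts were rounded and tested with edgeR 4.0.16 in R 4.3.3: filterByExpr, TMM and the quasi-likelihood F test with all 6 uteri and no covariate, adjusted over 16605 genes. The form without the legacy setting was used, because the sources do not name the edgeR test. Each standard error was derived from the fold change and its F statistic, and CPM uses TMM-scaled library sizes. Single genes were compared with an exact permutation test of log2(CPM + 0.5). Total counts were 13960748 to 25906443 per uterus, and limits from counts cover counting error only. The script was tested on simulated data.

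The members and gene lists were chosen with earlier results of these data known. Named are the 10 members, list genes that were called, some of those among the 4 most abundant of their list, and the 3 nearest profiles. Genes behind a count of 5 or fewer, and list genes named for their part in a comparison, were named after their values were seen. Alternatives were other tests (DESeq2 1.42.0 and limma 3.58.1 included), normalizations, filters and thresholds, unrounded counts, a replicate block and each uterus left out. Promoters were read from GRCm39. Protein sequences were not used here.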

Additional observations from a re-analysis of the deposited data

How the results depend on the processing

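With the edgeR quasi-likelihood test, 26 genes and 1 of the secretory genes, *Ovgp1*, were called. The number of genes called was 1252 with the exact test, 1317 with the likelihood ratio test, 1593 with DESeq2, 7 with the legacy quasi-likelihood form, 105 with no filter, 6 with the replicate block and 855 at an FDR under 0.10. Leaving out each uterus in turn gave 1 to 892 genes and 0 to 1 secretory gene, and the legacy form called 0 secretory genes. *Ovgp1* kept its direction in all 18 listed alternatives, at log2 fold changes of 3.26 to 4.03, with an adjusted p of 2.13e-17 to 0.137 and 0.0592 in the legacy form. The sign of *C3* turned with the replicate block (0.077), without control 1 (0.77, the range being −0.814 to 0.767 with each uterus left out) and with limma-trend on TPM (0.26), and that of *Lcn2* without control 1 (0.65, range −1.893 to 0.65). None of these was called, and the cause was not tested. The other 6 tested genes kept their sign in each of these alternatives that tested them, which was 17 of the 18 for *Defb1*, left out by the filter of 1 CPM. In the added alternatives, *Wfdc2* was at −0.05 relative to the 12 epithelial markers and *C3* at 0.23 relative to *Epcam*. Replicate numbers do not pair the uteri: the deviations of same-numbered uteri correlated at 0.104, 0.069 and −0.196, and under the replicate block *Ovgp1* was still the secretory gene called. Scaling by upper quartile moved the median of all genes to −0.11. Depth limits *Defb1* (1 to 75 counts) and *Camp* (0 or 1).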
